A study of Mus musculus with 6 samples.

Results

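The Krüppel-like factors described here are 9 genes, Klf2, Klf3, Klf4, Klf6, Klf7, Klf9, Klf10, Klf12 and Klf13, taken by gene name from all non-control probes of the arrays. They had 11 of the 39429 probes, and were 9 of the 30342 gene names and 9 of the 16413 genes tested. All 9 were well above background on at least 3 of the 6 arrays, and 8 of them, all but Klf12, on all 6 arrays.

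Krüppel-like factors are transcription factors that bind GC-rich sequences and CACCC boxes through zinc fingers near the end of the protein, while the rest of the protein recruits activators or repressors. In T cells KLF2 is best known for keeping resting cells quiescent and for maintaining the receptors with which they leave and re-enter lymphoid tissue, and its transcript falls after antigen receptor signalling. KLF3 and KLF12 recruit the corepressor CtBP, and KLF9, KLF10 and KLF13 recruit the corepressor Sin3. KLF4 is abundant in monocytes and also restrains proliferation of some T cells.

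The cells were γδ T cells from the spleen of Eomes-IRES-GFP mice on the C57BL6 background, in which green fluorescent protein (GFP) reports the T-box factor Eomes. After depletion of cells with B220, CD4 or CD8β, cells that carried CD3 and TCRγδ but no TCRβ were sorted as GFP-positive (called Eomes-positive) or GFP-negative (Eomes-negative). Both groups carry the reporter allele (Eomestm1.1Twa), and the labels name no other allele and no agent. There were 3 independent sorts, each pooling 4 to 6 spleens, so an array stands for a pool of mice. Each sort gave 1 array per group, hence 3 arrays per group. Mice were 9 weeks old in sort 1, 9.5 weeks in sort 2 and 7.5 weeks in sort 3. RNA input was 9 ng in sorts 1 and 2 and 4 ng in sort 3. The comparison asks how transcripts differ between Eomes-positive and Eomes-negative cells.

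Levels are given as log2 signal after subtraction of each array's 75th percentile, and differences are Eomes-positive minus Eomes-negative on that scale. Signal was well above background for 47.7% to 56.6% of the probes of an array. Eomes itself was 4.76 higher in the Eomes-positive arrays (SE 0.59, limma adjusted p = 0.0178). All 10 of the 10 markers of γδ and other T cells on the array were above background, with summed linear levels of 392 to 535 in the Eomes-negative and 330 to 441 in the Eomes-positive arrays, in units of the array's 75th percentile. Within that list 8 of 10 genes were lower in the Eomes-positive array of every sort. On group only 2 passed, both γ chain variable segments, Tcrg-V6 (-4.02, limma adjusted p = 0.0117) and Tcrg-V5 (-2.24, adjusted p = 0.0085). Among all genes tested, 27.1% were lower in every sort and 2.77% passed on group only, in either direction. In sorted populations, fewer cells of a type and less RNA per cell cannot be told apart.

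The members differ in the sequence before their start. RefSeq promoter sequences (GRCm38.p6) were matched for 8 of the 9 genes, all but Klf10. The 250 bases before the start are shown for the 3 genes that were lower in Eomes-positive cells in every sort (Klf2, Klf6 and Klf13) and for Klf3, 1 of the 3 that were higher in every sort. Each is written 5′ to 3′ on the strand of the gene, and capitals mark matches to CACCC, the letters of the KLF box, which read GGGTG where the match is on the other strand. The windows are chr8:72318812-72319061 (plus strand), chr13:5861239-5861488 (plus strand), chr7:63938916-63939165 (minus strand) and chr5:64803271-64803520 (plus strand).
Klf2: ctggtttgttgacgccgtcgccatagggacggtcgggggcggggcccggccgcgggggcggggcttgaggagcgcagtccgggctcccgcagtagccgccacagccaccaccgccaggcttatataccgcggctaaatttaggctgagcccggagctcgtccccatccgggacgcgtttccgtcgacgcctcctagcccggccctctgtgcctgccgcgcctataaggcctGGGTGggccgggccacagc
Klf6: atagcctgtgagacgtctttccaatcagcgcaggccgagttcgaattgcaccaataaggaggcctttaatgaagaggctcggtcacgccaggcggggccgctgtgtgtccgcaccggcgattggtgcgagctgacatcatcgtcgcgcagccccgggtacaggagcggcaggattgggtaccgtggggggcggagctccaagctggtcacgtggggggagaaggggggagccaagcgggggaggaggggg
Klf13: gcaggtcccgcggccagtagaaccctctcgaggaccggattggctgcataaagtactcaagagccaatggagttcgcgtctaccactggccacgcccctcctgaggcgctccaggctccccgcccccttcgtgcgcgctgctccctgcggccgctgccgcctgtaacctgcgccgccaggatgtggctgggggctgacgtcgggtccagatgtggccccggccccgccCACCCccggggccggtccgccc
Klf3: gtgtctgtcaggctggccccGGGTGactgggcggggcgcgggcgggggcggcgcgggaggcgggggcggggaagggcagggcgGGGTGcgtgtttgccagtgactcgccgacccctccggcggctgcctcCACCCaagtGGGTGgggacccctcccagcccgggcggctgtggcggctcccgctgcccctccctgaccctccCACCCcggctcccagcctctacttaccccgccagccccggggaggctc

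The Klf2 window held 1 match to CACCC, at bases -19 to -15 on the other strand, the Klf13 window held 1, the Klf3 window held 5, and the Klf6 window held 0. The windows of Klf4 and Klf7, also higher in every sort, held 0 and 3. On either strand, CACCC was present in 6 of the 8 windows and in 52% of 32851 RefSeq windows of the same length. The T-box core TCACACC was in 0 of the 8 windows and in 3.33% of all windows. The forkhead core GTAAACA was in 1 of the 8, that of Klf9, and in 3.17% of all. The 3 motifs do not overlap in these windows. GC content was 71.2% for Klf2, 64.8% for Klf6, 71.6% for Klf13 and 78.4% for Klf3, against a median of 52.4% over all windows. A match is a run of letters and not a binding site, and a window without one shows only that these letters are not in it.

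None of the 9 genes passed the test between the groups when each array was taken on its own. With limma on group only and Benjamini-Hochberg adjustment, 0 of 9 passed, while 2.77% of all tested genes passed. At an unadjusted p under 0.05 there was 1 of 9, Klf6, and 12.2% of all tested genes. The median difference of the 9 was 0.17, and that of all genes tested was -0.01. Within sorts, 3 genes (Klf2, Klf6 and Klf13) were lower in Eomes-positive cells in all 3 sorts, 3 (Klf3, Klf4 and Klf7) were higher in all 3, and 3 (Klf9, Klf10 and Klf12) pointed both ways. Of all genes tested, 27.1% were lower and 25.3% higher in all 3 sorts, so 3 of 9 in each direction is near the background.

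The sorts can be treated as pairs if both populations of a sort came from the same pool of spleens. The design text gives independent sorts, and same-numbered arrays share mouse age and RNA input. The shared pool is inferred from this. With the sort as a block in the fit (the replicate block), 1 of the 9 genes passed, Klf2, which was lower in Eomes-positive cells. That fit called 7.98% of all tested genes, 4.33% as lower, so 1 of 9 is near the background. The block reduced the standard error of all 9 differences. Without the block the standard error was larger by a median factor of 2.21 over the 9 genes and 1.81 over all genes tested, and by 5.10 for Klf2, 5.49 for Klf4 and 5.21 for Klf9.

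**Figure D1:**
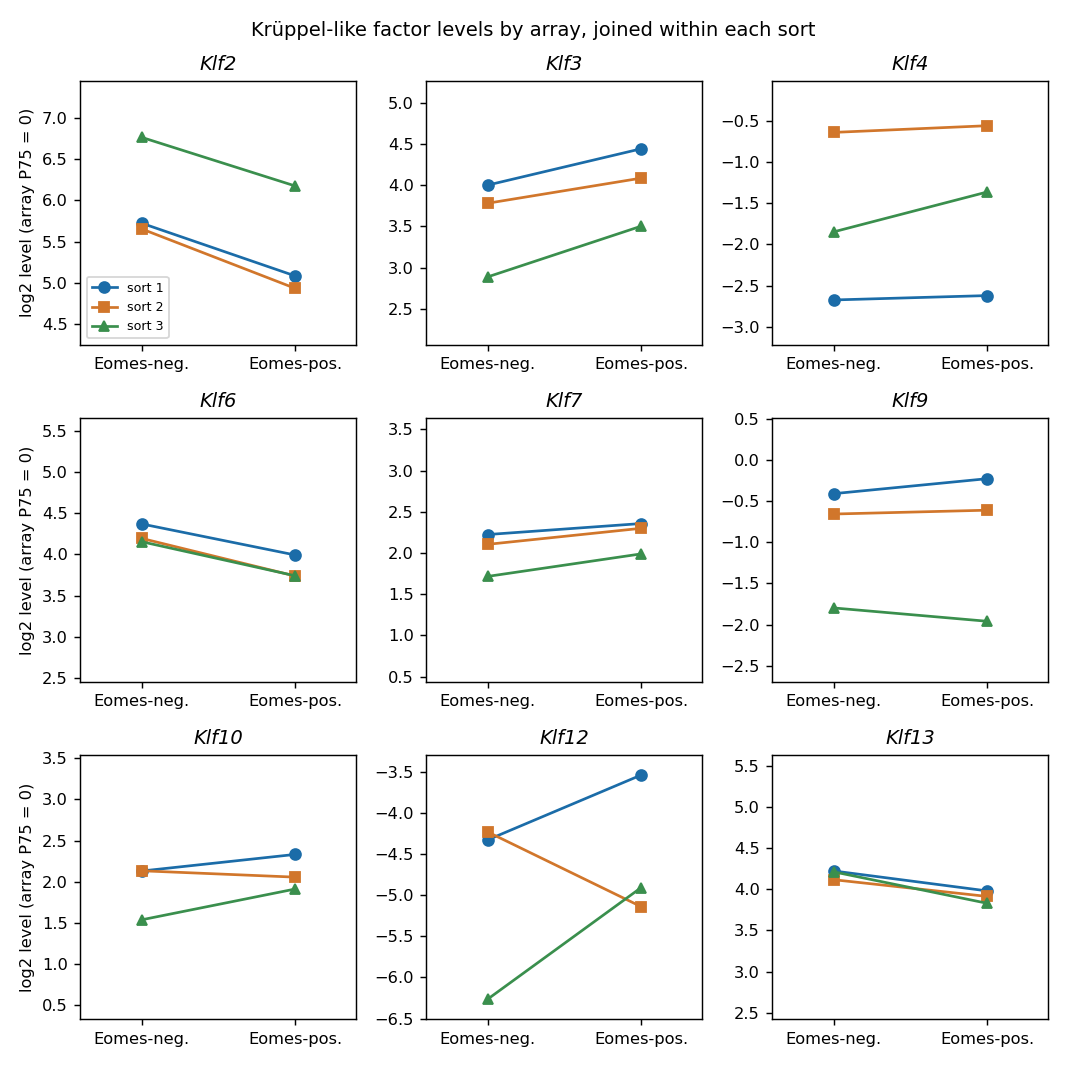
Level of each Krüppel-like factor on the 6 arrays (log2 relative to the array's 75th percentile, all panels spanning the same number of log2 units), with the Eomes-negative and Eomes-positive array of a sort joined by a line. The Klf2 lines fall in parallel, from 5.72 to 5.08, from 5.65 to 4.93 and from 6.76 to 6.17, while the Klf9 lines differ by at most 0.18 within a sort and lie far apart.

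Klf2, the member that passed with the block, was lower in Eomes-positive cells by a similar amount in each sort. Its level was 5.72, 5.65 and 6.76 in the Eomes-negative arrays of sorts 1, 2 and 3 and 5.08, 4.93 and 6.17 in the Eomes-positive arrays. The Eomes-positive array was the lower one of each sort, but the groups overlapped, because both arrays of sort 3 were higher than both arrays of every other sort. The differences within sorts were -0.64, -0.72 and -0.59, with a mean of -0.65, or 1.57-fold lower. With group only, the SE was 0.46 and the 95% interval -1.78 to 0.48 (adjusted p = 0.759). With the replicate block, the SE was 0.090 and the interval -0.90 to -0.40 (limma adjusted p = 0.0322). With the block and without 1 sort the difference was -0.66, -0.61 and -0.68, and the adjusted p was 0.144 without sort 1, 0.159 without sort 2 and 0.107 without sort 3. With the slide as a block the difference was -0.60 (limma adjusted p = 0.141), and within slide 1, which holds both groups, it was -0.605. Slide 3 holds only the arrays of sort 3, so its difference is the -0.59 of that sort given above. The probe lies at chr8:74845137-74845196 on the plus strand (mm9, as are all probe positions here).

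Markers of αβ T cells also moved with the groups. Of the 6 on the array, 5 (Cd4, Cd8a, Cd8b1, Foxp3 and Zbtb7b) were lower in the Eomes-positive array of every sort, beside 27.1% of all genes tested. Cd40lg was not above background on any array. On group only 1 of the 5 passed, Cd8b1 (-2.86, limma adjusted p = 0.0194), and with the block 2 did. The summed linear level of the 6 was 12.0 to 15.3 in the Eomes-negative and 5.80 to 6.75 in the Eomes-positive arrays. Some of these genes are also expressed by γδ T cells. Markers of natural killer cells moved the other way, with 8 of 9 higher in the Eomes-positive array of every sort. There were 4 past the test on group only and 6 with the block. Among all genes tested, 25.3% were higher in every sort, and 2.77% and 7.98% passed in these fits, in either direction. The sum of the 9 markers went from 49.5 to 85.2 in sort 1, from 125 to 134 in sort 2 and from 40.2 to 98.1 in sort 3. Gzma, the brightest of the 9 on every array, was the 1 not higher in every sort. It differed by -0.36, -0.47 and 0.42 within sorts 1, 2 and 3. Klre1 (4.33) and Klrb1c (1.66) were among the 4 that passed on group only. The part of these markers, and of the Tcrg-V5 and Tcrg-V6 differences above, in the difference in Klf2 was not tested.

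Klf6, an immediate early member that is widely expressed, and Klf13, which in T cells drives late transcription of the chemokine gene Ccl5, were the members whose groups did not overlap. Klf6 was 4.37, 4.20 and 4.16 in the Eomes-negative and 3.99, 3.74 and 3.74 in the Eomes-positive arrays of sorts 1, 2 and 3. All 3 Eomes-positive values were lower than all 3 Eomes-negative ones. The difference was -0.42 (SE 0.15, adjusted p = 0.325), or 1.33-fold lower, and missed the threshold with the replicate block too (SE 0.087, adjusted p = 0.0739). Its probe is at chr13:5869371-5869430 (plus strand).

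Klf13 was 4.22, 4.12 and 4.21 in the Eomes-negative and 3.98, 3.91 and 3.83 in the Eomes-positive arrays, again without overlap. The difference was -0.28 (SE 0.13, adjusted p = 0.509), with a 95% interval of -0.59 to 0.04, and with the block the adjusted p was 0.170. Groups lay apart in this direction for 2 of the 9 members and for 9.68% of all genes tested, and in the other direction for 0 of 9 and 8.53%. Klf6 and Klf13 were also the members whose level depended least on the sort. The sort held 20.6% of the sum of squares over the 6 arrays for Klf6 and 7.09% for Klf13, and the group held 78.9% and 86.2%. Over all genes tested the medians were 66.6% for the sort and 13.8% for the group.

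Klf13 was the member with more than 1 probe. The values above are from the probe at chr7:71082854-71082913, on the minus strand like the gene in RefSeq. A second probe, which spans chr7:71036675-71069606, was not well above background on any array. The third, at chr7:71032482-71032541, has its coordinates on the plus strand, opposite to the gene. Over the array, 99.5% of 21865 probes that could be compared lie on the strand that RefSeq gives for their gene. The values of this probe were left out of the level of the gene given above. They entered the alternatives that took the probe with the largest variance (difference -0.84) or the mean of all probes (-0.38).

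That opposite-strand probe read 3.70, 3.29 and 2.65 in the Eomes-negative and 2.60, 1.96 and 2.57 in the Eomes-positive arrays. Its lowest Eomes-negative value was higher than all 3 Eomes-positive values, and the sorts differed by -1.10, -1.33 and -0.08. The mean difference was -0.84 (SE 0.33, adjusted p = 0.412 over all probes measured, and 0.176 with the block). Both measured probes were lower in every sort, and neither passed the test.

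**Figure D2:**
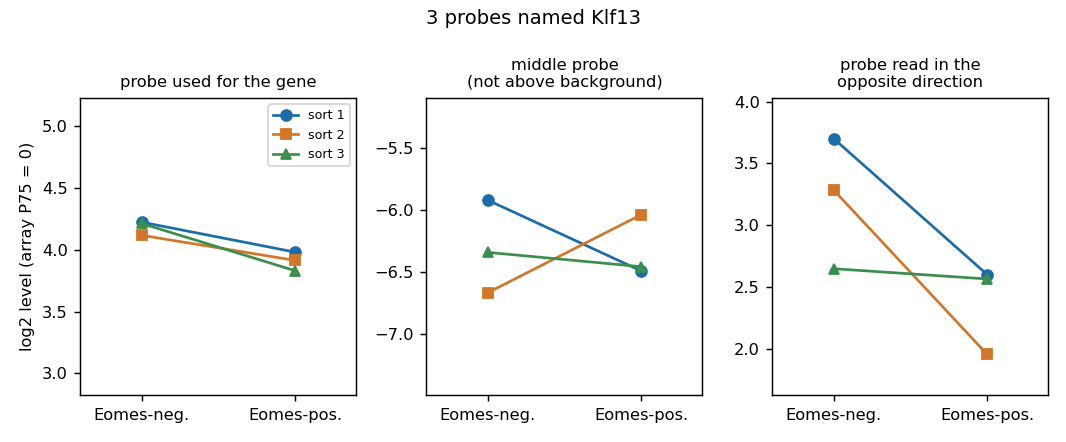
Level of the 3 probes named Klf13 (log2 relative to the array's 75th percentile) in the Eomes-negative and Eomes-positive array of each sort. The probe used for the gene is lower in each sort by 0.20 to 0.38, the middle probe is below background, and the probe on the opposite strand is lower by 1.10 and 1.33 in sorts 1 and 2 and by 0.08 in sort 3.

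Klf3 and Klf7 were higher in the Eomes-positive array of every sort. Klf3, a CtBP-binding repressor, was 4.00, 3.78 and 2.89 in the Eomes-negative and 4.44, 4.09 and 3.50 in the Eomes-positive arrays. The groups overlapped, since both arrays of sort 3 were lower than the other 4. The difference was 0.45 (SE 0.38, adjusted p = 0.836), or 1.37-fold, and with the block the SE was 0.11 and the adjusted p 0.0895. Its probe is at chr5:65221309-65221368 (plus strand).

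Klf7, known for its role in neurons, was 2.22, 2.11 and 1.72 in the Eomes-negative and 2.36, 2.30 and 1.99 in the Eomes-positive arrays. The groups overlapped here too, through the low arrays of sort 3. The difference was 0.20 (SE 0.20, adjusted p = 0.891, and 0.255 with the block), and the block's 95% interval was -0.05 to 0.45. The probe is at chr1:64082265-64082324 (minus strand).

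Klf4 differed little between the groups and by a large amount between the sorts. It was -2.67, -0.64 and -1.85 in the Eomes-negative and -2.62, -0.56 and -1.36 in the Eomes-positive arrays. Sort 2 was highest and sort 1 lowest in both groups. The group difference was 0.21 (SE 0.71, adjusted p = 0.990), and 0.05, 0.08 and 0.48 within sorts. With the block the 95% interval was -0.15 to 0.56 (adjusted p = 0.377). Slide 1 of the arrays held the Eomes-negative samples of sorts 1 and 2 and the Eomes-positive sample of sort 1 only, and within it the difference was -0.96, the opposite direction. The probe is at chr4:55540167-55540226 (minus strand).

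Klf9, which responds to glucocorticoid and thyroid hormone, was -0.41, -0.66 and -1.80 in the Eomes-negative and -0.23, -0.61 and -1.96 in the Eomes-positive arrays. Both arrays of sort 3 were the low ones. The difference was 0.02 (SE 0.57, adjusted p = 0.997), and the block's interval was -0.28 to 0.32. Klf10, which is induced by TGF-β, was 2.13, 2.13 and 1.54 against 2.33, 2.06 and 1.91. Its groups overlapped, and the difference was 0.17 (SE 0.23, adjusted p = 0.946), with a block interval of -0.18 to 0.51. Their probes are at chr19:23240410-23240469 (plus strand) and chr15:38224255-38224314 (minus strand).

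Klf12 was near the limit of the arrays. It read -4.33, -4.23 and -6.26 in the Eomes-negative and -3.54, -5.14 and -4.91 in the Eomes-positive arrays, and was well above background only on the Eomes-negative arrays of sorts 1 and 2 and the Eomes-positive array of sort 1. The difference of 0.41 (SE 0.70, adjusted p = 0.966) rests partly on values without a measured signal. The block's 95% interval ran from -0.90 to 1.73, so the arrays could not resolve a difference of this size. The probe is at chr14:100270699-100270758 (minus strand).

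**Figure D3:**
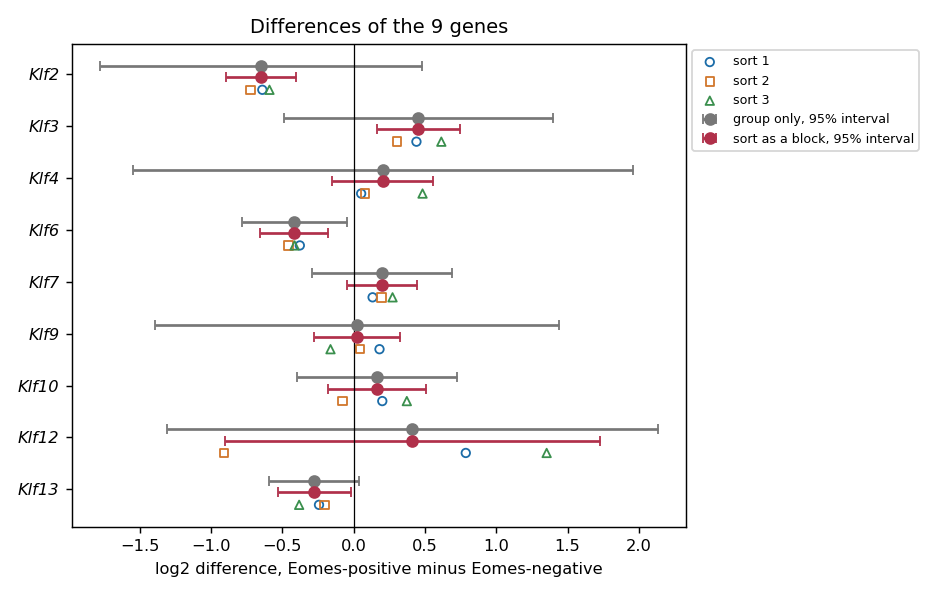
Difference of each gene between Eomes-positive and Eomes-negative arrays (log2), with 95% intervals, not adjusted for the number of genes, from the fit on group only (grey) and with the sort as a block (red), and the difference within each sort (open symbols). Every red interval is narrower than the grey one, and that of Klf2 runs from -0.90 to -0.40.

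The spread between sorts was itself tested, by an F test of the sort with the group in the model, a question added after the data had been seen. With limma, 4 of the 9 genes passed, Klf2 (adjusted p = 0.0149), Klf3 (0.0258), Klf4 (0.0130) and Klf9 (0.0144), while 22.8% of all genes tested did. In sort 3, Klf2 was 1.12 higher than the mean of sorts 1 and 2, by 1.08 in Eomes-negative and 1.17 in Eomes-positive cells. Klf3 was lower in sort 3 by a difference of -0.88, and Klf9 by -1.40. Sort 3 had the youngest mice, the smaller RNA input and a slide of its own, and its raw 75th percentiles were 549 and 534 intensity units against 1581 to 1684 in the other sorts. Sort, age, RNA input and slide cannot be told apart for it.

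In sort 2, Klf4 was 2.05 higher than in sort 1, by 2.03 in Eomes-negative and 2.06 in Eomes-positive cells. When arrays were scaled on the median instead, every gene's difference between sort 2 and sort 1 shifted by -0.30, and that of Klf4 was 1.75. Most myeloid markers were highest in sort 2 too. Of the 10 on the array, 9 were highest in sort 2 in both groups. The summed linear level of the 10 was 279 and 281 in sort 2, against 21.1 and 15.7 in sort 1 and 35.9 and 37.8 in sort 3. Between the groups the list was mixed, with 0 of 10 lower and 2 of 10 higher in every sort, beside 27.1% and 25.3% of all genes tested. The 2 were Lyz2 (0.55, 0.06 and 0.58 within sorts 1, 2 and 3) and S100a8 (0.02, 0.25 and 0.76). Csf1r differed by -2.69, -1.40 and 0.83 within sorts 1, 2 and 3, and Adgre1 by -3.31, -1.57 and 1.03. Klf4 differed by 0.05, 0.08 and 0.48. Erythroid markers were lowest in sort 1 in both groups for 7 of 7, with sums of 23.7 and 23.6 there and of 166 to 281 in the other sorts. Their part in the level of Klf4 was not tested. B cell markers summed to 15.9, 19.8 and 24.0 in the Eomes-negative arrays of sorts 1, 2 and 3. In the Eomes-positive arrays the sums were 9.56, 13.9 and 19.0, lower in each sort. That fall came from Cd79b, at 3.76, 3.87 and 4.04 in the Eomes-negative and 2.72, 3.11 and 3.07 in the Eomes-positive arrays. Without Cd79b the summed level was higher in the Eomes-positive array of every sort. Of the 8 on the array, 3 were lower in every sort and 1, Cd22 (0.70), was higher in every sort. Among all genes tested these shares were 27.1% and 25.3%. Of the 3, Pax5 was above background on only 2 arrays. Cd79b (-0.92) passed with the block (limma adjusted p = 0.0217) but not on group only (0.0598). It was the only 1 of the 6 tested to pass with the block, which called 4.33% of all genes tested as lower. The part of B cell markers in the difference in Klf2 was not tested.

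**Figure D4:**
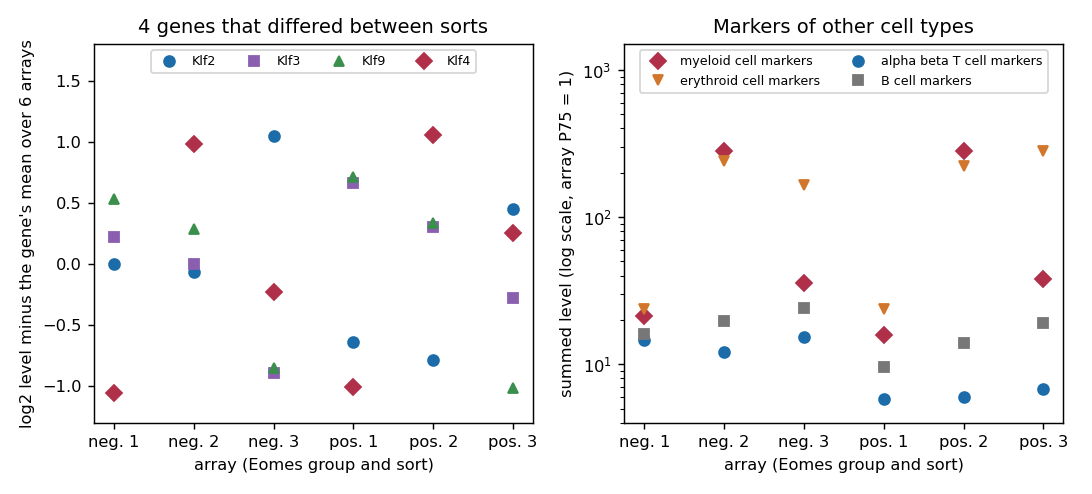
Left, levels of the 4 genes that differed between sorts, each relative to its mean over the 6 arrays (log2). Right, summed linear levels of marker genes of other cell types on the same arrays (log scale, array's 75th percentile as 1). Klf4 and the myeloid sum are highest in sort 2 in both groups, where the sum reaches 279 and 281, and Klf2 is highest in sort 3.

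The 3 tested genes whose levels ran closest to those of Klf2 over the 6 arrays, after centring each gene on its mean, were Dlg4 (root mean square distance 0.071), Tle5 (0.089) and Anxa6 (0.090). Dlg4 encodes a synaptic scaffold protein, Tle5 a small corepressor of the Groucho family, and Anxa6 a calcium-dependent membrane-binding protein. Their differences were -0.64, -0.57 and -0.65, with adjusted p-values of 0.782, 0.769 and 0.753 on group only and 0.0385, 0.0532 and 0.0337 with the block. They were chosen for their likeness to Klf2, so these values are a description.

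Genes around the family were read from lists. Among other KLF and SP factors, 10 of 17 were tested, 0 passed on group only (1 at an unadjusted p under 0.05), and 2 were lower with the block, beside 4.33% of all genes tested. The median difference was -0.23, but 0.08, the other direction, over genes measured on all 6 arrays, -0.085 with the authors' table, -0.10 without sort 1, -0.36 without sort 3, and -0.028 and -0.012 within slides 1 and 3. Sp1 and Sp4, named for their probes' signal, differed by 0.08 (SE 0.16, adjusted p = 0.968) and -0.26 (SE 0.44, adjusted p = 0.965). The 2 that were lower with the block, named after their values were seen, were Klf8 at -2.19 (SE 0.39, adjusted p = 0.0527, and 0.0293 with the block) and Sp6 at -1.01 (adjusted p = 0.576, and 0.0377 with the block), which was well above background on 2 arrays of each group. Klf8, a CtBP-binding repressor, was -3.58, -3.03 and -3.54 in the Eomes-negative and -5.05, -5.29 and -6.37 in the Eomes-positive arrays. The groups did not overlap, but it was well above background on only 1 Eomes-positive array.

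The recirculation genes that KLF2 is known to support, or that are tied to it, were the list with the largest median difference of the 6, at -0.84. Of its 8 members, all tested, 1 passed on group only. Itgb7, a subunit of the gut-homing integrin, was 5.82 ± 0.43 (SD, n = 3) in Eomes-negative and 4.16 ± 0.30 (SD, n = 3) in Eomes-positive arrays, and fell by 1.66 on the log2 scale (SE 0.28, limma adjusted p = 0.0431). This call was lost with median scaling, with no filter on dim probes and when any sort or any array was left out, with 0 of 8 called each time. With the block 5 of 8 were lower, beside 4.33% of all genes tested. Besides Itgb7 they were Il7r (-1.42), the survival cytokine receptor, and Ccr7 (-1.01), the lymph node homing receptor. S1pr1 (-0.87), the receptor for egress, and Cd69 (-0.70), which holds S1PR1 inside the cell, were the others. CD69 thereby opposes S1PR1, so the 5 do not all act in the same direction on egress. With the block and without sort 1 that count was 0, and without sort 2 or sort 3 it was 1. S1pr4 (-0.82) and Cxcr3 (0.32) did not pass either fit. The αβ T cell markers, the B cell marker Cd79b and the Tcrg-V5 and Tcrg-V6 probes described above were lower in the same arrays. Natural killer cell markers were mostly higher. The part of all these markers in the differences of the recirculation genes was not tested.

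Other known KLF targets had a median difference of -0.60, which was -0.24 without the Eomes-negative array of sort 3. On group only 0 of 8 passed, and 4 had an unadjusted p under 0.05, beside 12.2% of all genes tested. With the block 2 were lower, Lgals3 (-2.05) and Nos3 (-0.83), both named after their values were seen, beside the same 4.33%. Ccl5, the KLF13 target, differed by 0.65 (SE 0.28, adjusted p = 0.465) and Cd47 by -0.53 (SE 0.16, adjusted p = 0.217).

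Quiescence and antiproliferative genes (9 of 10 tested, median -0.09), cofactors of KLF proteins (11 of 12, median 0.02) and regulators of KLF genes and proteins (17 of 18, median -0.01) had 0 members past the test in either limma fit. At an unadjusted p under 0.05 on group only there were 2, 0 and 1 of them, and with the block 2, 2 and 5. Of all genes tested, 12.2% and 26.2% had such a p in these fits. The medians lay near 0 and turned, to 0.01 with median scaling for the first list, to -0.13 without the Eomes-negative array of sort 2 for the second and to 0.13 within slide 1 for the third. Btg1 and Slfn2, which restrain proliferation, differed by -0.09 (SE 0.17) and -0.48 (SE 0.18). The corepressor subunits Sin3b and Hdac1 differed by -0.20 (SE 0.17) and 0.17 (SE 0.14). Foxo1, which drives Klf2 transcription, differed by -0.08 (SE 0.14), and Smad4, the shared mediator of TGF-β signals, by -0.06 (SE 0.15). The adjusted p of these 6 genes ran from 0.338 for Slfn2 to 0.980 for Smad4.

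**Figure D5:**
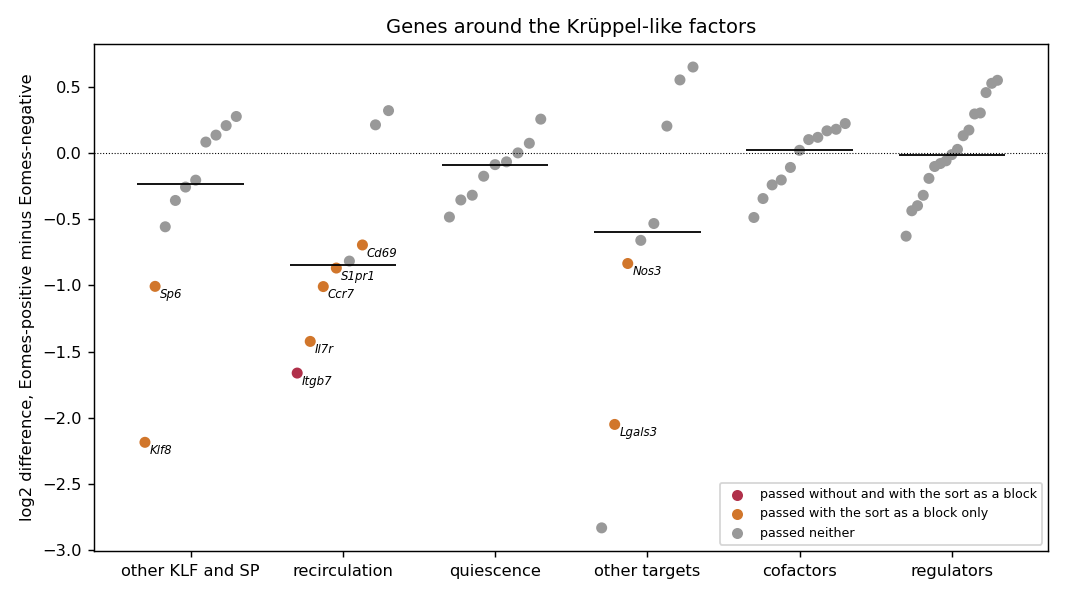
Difference between Eomes-positive and Eomes-negative arrays (log2) of each tested gene of 6 lists around the Krüppel-like factors, with the list's median as a line. Itgb7 is the gene that passed both fits, and the genes in orange passed with the sort as a block only, all of them lower in Eomes-positive cells.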

How the data were processed

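Total RNA of 6 samples was amplified in 1 round and hybridized to single-colour Agilent arrays. Per the file headers, the deposited signal is an intensity on a linear scale from Agilent Feature Extraction 10.7.3.1 (also named in the submitters' processing notes), background-subtracted and detrended, with no scaling between arrays. Per the file headers, the other columns used are 0 or 1 flags per spot. The value table that the authors deposited holds 1 scaled intensity per probe and was used as an alternative.

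Log2 intensities of a probe's 4 spots were averaged without outlier spots and scaled by subtracting each array's 75th percentile. A probe was called measured on an array if 50% or more of its spots exceeded background clearly, by the software's flag. Each gene was represented by its brightest probe, and genes measured on 3 of 6 arrays or more were tested, 16413 in all. RefSeq accessions named 27508 probes. No value column lacked a sample (0 of them unmapped).

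The main test was limma 3.58.1 (R 4.3.3) on group only, with Benjamini-Hochberg adjustment over all genes tested and a threshold of 0.05. The script was tested on simulated data. The alternative with the sort as a replicate block rests on the design text, which gives 3 independent sorts. That same-numbered arrays form a pair is inferred from their numbers, mouse ages and RNA input. Deviations of same-numbered arrays from their group means correlated at 0.812, 0.818 and 0.808 over genes, and those of other pairs at -0.26 to -0.57. Centring each group on its own mean pushes the other pairs towards negative values once same-numbered ones are positive. The negative values are therefore no separate support for the pairing. With 3 arrays a group, which limits precision, the smallest two-sided p of an exact permutation test is 0.1.

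The members and lists were chosen with earlier results of these data known. Named were the 9 genes and Eomes, up to 4 called members per list or otherwise the 2 with the highest signal, and the 3 genes closest to Klf2. A single gene of the recirculation list is counted in it but not reported here by name. Genes named outside this rule are marked in the text or are the members of a list that it counts. Promoter windows were read from RefSeq (GRCm38.p6), and protein sequences were not used here. Figures were drawn with Python 3.11.15, pandas 2.3.3 and matplotlib 3.10.9.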

Additional observations from a re-analysis of the deposited data

How the results depend on the processing

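The differences of Klf2, Klf3, Klf6, Klf7 and Klf13 kept their sign in all 30 alternatives run for each. Many of these could not change it. The replicate block leaves a difference as it is, and the filter and the choice of probe leave a gene with 1 probe as it is. For Klf13 the probe with the largest variance was the one on the opposite strand, and the mean of all probes included it. Klf2 ranged from -1.04 to -0.29 and passed in 6 of 28 tests, all with the replicate block, Klf6 passed in 2 and Klf3 in 1, also with the block, and Klf13 in none. The count of the 9 genes called lower was 0 on group only and 1 with the replicate block, also with median scaling, quantile normalization or the authors' table, and 2 with the block and either normexp background or genes measured on all 6 arrays. The block with normexp also called 1 higher, Klf3 (adjusted p = 0.0452). With the block and 1 sort left out, 0 of the 9 passed. These combinations with the block and the test of the sort were chosen after seeing the data.

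Differences of Klf4, Klf9, Klf10 and Klf12 reversed under some alternatives, none of them called. Klf4 was -0.34 with the slide as a block, -0.089 with it as a random block and -0.96 within slide 1, and -0.27 without the Eomes-negative array of sort 1 or the Eomes-positive array of sort 2, and 0.76 at most over arrays left out. Klf9 was -0.0045 with the authors' table, with and without the block, -0.16 within slide 3, -0.058 without sort 1 with and without the block, and -0.40, -0.33 and -0.14 without Eomes-negative array 3, Eomes-positive array 1 and Eomes-positive array 2. Over arrays left out, Klf9 ranged from -0.40 to 0.54. Klf10 was -0.032 without Eomes-negative array 3 and 0.29 at most over sorts or arrays left out. Klf12 was -0.060 without sort 3 with and without the block, -0.25 without Eomes-negative array 3 and -0.083 without Eomes-positive array 1, and reached 1.07 without sort 2. The cause was not tested.

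Over all genes, 197 were called higher and 257 lower on group only, 600 and 710 with the block, and 789 and 582 with the block and median scaling, which shifts every difference by 0.098. Calls on group only fell to 0 and 0 without sort 1 or sort 2, where limma has fewer samples, and to 92 and 154 with no filter on dim probes. The test of the sort passed for 5 of the 9 with normexp background and with median scaling, where 49.8% and 42.3% of all genes passed. Low signal limits Klf12 most.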
